A study of Mus musculus with 8 samples.

Results

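Gon4l and Gm43713 are a sense and antisense gene pair on mouse chromosome 3, and they are described here in cortical nuclei of 4 Wt and 4 Ifnar1-/- mice. They were picked from the feature list by their symbols, as 2 of the 31053 features that were counted. The pair was chosen because both genes differed between the genotypes in these libraries, so their genotype values are given as a description with no test. The question of the series was how loss of the type I interferon receptor alters cortical cells. Each genotype comprised 2 females (F1, F2) and 2 males (M1, M2), all naive, labelled 6 weeks old and of the C57BL6J strain. Wt mice were Ifnar1+/+, and Ifnar1-/- mice lack a functional Ifnar1 gene in every cell, on a background that the methods describe as repeatedly backcrossed to C57BL/6J. Nuclei of snap-frozen cortex were profiled by droplet sequencing of RNA 3' ends, in which each captured molecule is counted once by a unique molecular identifier (UMI).

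Gon4l encodes a large nuclear protein that works as a transcriptional co-regulator. It is known for binding the zinc finger factor Yy1 and the Sin3a and Hdac1 co-repressor complex, and for its need in B lymphocyte development. Gm43713 is an annotated antisense gene of unknown function. Antisense transcripts are read from the opposite strand of another gene, and in nuclei they are often seen beside the unspliced sense transcript. Ifnar1 encodes a subunit of the receptor for type I interferons and lies on another chromosome.

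Gon4l (ENSMUSG00000054199) is annotated on the plus strand of GRCm38 at chr3:88835231-88910103, and its transcript Gon4l-203 has 32 exons and 7537 bases. Gm43713 (ENSMUSG00000106218) lies within it on the minus strand at chr3:88845025-88900001, with 2 exons and 1896 bases. Its first exon covers 72 coding bases of Gon4l exon 24, and its second covers all 192 coding bases of Gon4l exon 3. The remaining 1632 exonic bases of Gm43713 lie over introns of Gon4l. Unspliced RNA was counted too, so all of the Gon4l gene, introns included, could give UMIs. Sense and antisense UMIs were thus told apart by read strand alone over the whole span of Gm43713, and the strand setting is not given in the sources used here.

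Both genes have a near-identical copy nearby, at lower coordinates than Gon4l. The copy of Gon4l lies upstream of it, and that of Gm43713 lies downstream of Gm43713. The unprocessed pseudogene 5830417I10Rik (chr3:88775216-88825587, plus strand) matched Gon4l-203 over 4321 of its 7537 bases, in 3 stretches at 98.7% to 99.1% identity. The stretches at bases 1689 to 4581 and 2703 to 5219 of Gon4l-203 overlap. The last 2318 bases of Gon4l-203 had no long match of high identity in the pseudogene. Shorter or less alike matches were not kept. The long noncoding RNA 1500004A13Rik (chr3:88782943-88832547, minus strand) matched Gm43713 over 1850 of 1896 bases at 99.5% identity, up to its last base. Only spliced transcripts were compared, so these matches do not cover the introns, which were counted too. Neither copy was among the counted features, so reads that fit a copy and a member equally well make the counts of both members uncertain, and how such reads were treated is not given in the sources used here.

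The shorter of the 2 stretches in which exons of the sense and antisense gene overlap is shown because it holds bases of both genes and of the pseudogene. It lies at chr3:88899930-88900001 of GRCm38 and is printed on the Gon4l strand, with the base that differs in capitals (T6C, counted from the 5' end of the stretch, Gon4l first).
Gon4l: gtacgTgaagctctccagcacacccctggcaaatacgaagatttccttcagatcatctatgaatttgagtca
5830417I10Rik: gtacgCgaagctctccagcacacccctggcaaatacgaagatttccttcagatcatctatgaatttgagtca
The last 100 bases of Gm43713 are shown because a 3' assay reads near transcript ends. They lie on the minus strand at chr3:88845025-88845124, at transcript positions 1797 to 1896. One base, A1877G in transcript positions, sets them apart from the copy and is in capitals.
Gm43713: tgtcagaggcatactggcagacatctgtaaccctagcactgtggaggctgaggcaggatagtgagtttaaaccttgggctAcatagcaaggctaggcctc
1500004A13Rik: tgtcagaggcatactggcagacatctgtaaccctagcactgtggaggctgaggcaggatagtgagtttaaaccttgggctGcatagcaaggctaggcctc
A read of this end that misses the capital base could not be assigned to one gene by its letters.

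**Figure D1:**
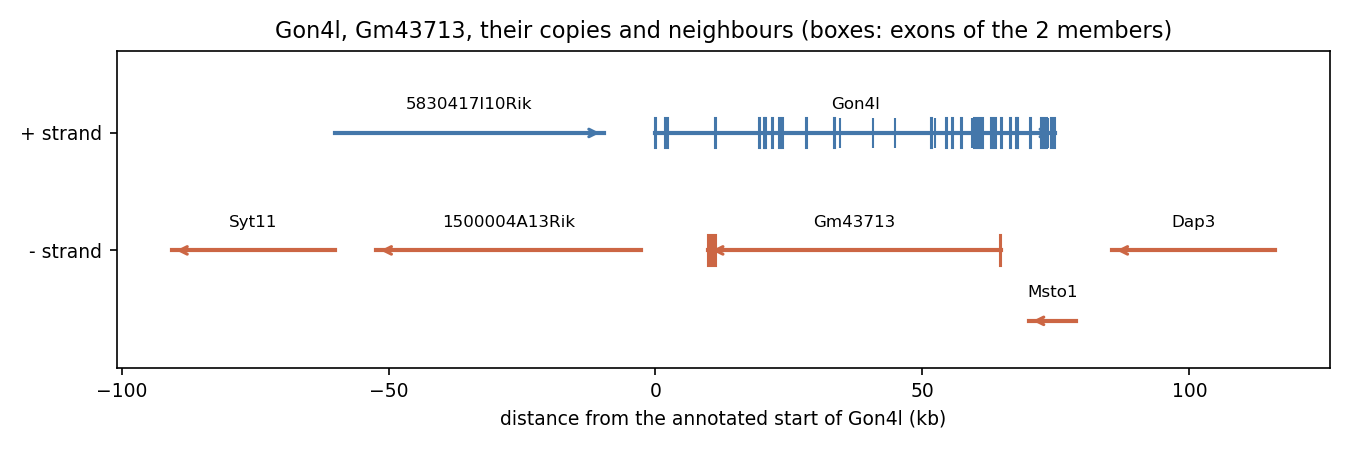
Map of the Gon4l locus, with distance in kb from the annotated start of Gon4l on the x axis and strand on the y axis (Msto1 is drawn lower to keep it apart). Boxes are exons of Gon4l-203 and of Gm43713, Gm43713 spans 9.8 to 64.8 kb inside Gon4l, and the pseudogene copy ends 9.6 kb before Gon4l starts.

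The promoter of Gon4l is shown as part of the description of the locus. Gm43713 starts 64.8 kb from the Gon4l start on the other strand, so this window is not its promoter. RefSeq (GRCm38.p6) gives the Gon4l promoter as chr3:88834981-88835280 on the plus strand, 250 bases before and 50 bases after the gene start. No promoter of Gm43713 was in the table used.
Gon4l promoter: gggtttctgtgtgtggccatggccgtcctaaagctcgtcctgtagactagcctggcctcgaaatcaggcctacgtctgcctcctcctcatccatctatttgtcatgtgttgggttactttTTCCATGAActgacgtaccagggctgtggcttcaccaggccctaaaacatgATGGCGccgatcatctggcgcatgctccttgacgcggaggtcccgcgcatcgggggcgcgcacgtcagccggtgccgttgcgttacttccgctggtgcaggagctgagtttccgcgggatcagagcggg
Capitals mark 1 match to TTCNNNGAA, the letters of a STAT-type GAS element, at position -130 from the start, and 1 match to ATGGCG, the core letters of a Yy1 site, at position -79. These letters occur on either strand in 8.3% and 8.93% of all 32851 promoters of this length. No match to the core of an interferon-stimulated response element (3.44% of promoters) or to CCAAT (37.4%) or TATAAA (13.6%) was in this window. The window had 59.3% G and C, against a median of 52.7% over all promoters. A match of letters is a description of the sequence only.

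The 8 libraries held 44063346 to 58423423 UMIs in 4499 to 10249 barcodes, and 52079 nuclei were kept. Ifnar1 was detected in all libraries, at 16.2 to 19.9 UMIs after scaling each library to the same total (CPM) in Wt and 13.9 to 16.8 CPM in Ifnar1-/-, so the groups overlapped over all nuclei. In microglia Ifnar1 stood at 42.4 to 62.1 CPM in Wt and 22.9 to 36.2 CPM in Ifnar1-/- and did not overlap. The UMIs were summed over the whole gene, deleted or not, so this is only a partial check of the labels. Of the deposited barcodes, 384 strings occurred in more than 1 library, among 56392 distinct strings. In glutamatergic neurons 86.4% of nuclei had UMIs of the marker Slc17a7, in GABAergic neurons 76.3% had Gad1, in oligodendrocytes 93.8% had Mog and in microglia 93.5% had Csf1r. Nothing in the labels says that libraries of one mouse were repeated, and each library was taken as 1 mouse.

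Glutamatergic neurons, the excitatory cells of the cortex, made up the largest class, with 22203 nuclei. Gon4l stood there at 91.1, 91.6, 114 and 105 CPM in the Wt mice F1, F2, M1 and M2. In the Ifnar1-/- mice it stood at 194, 198, 204.8 and 202 CPM in the same order. All Ifnar1-/- mice lay well above all Wt mice, and the Ifnar1-/- mice varied little among themselves. The means were 100.2 ± 10.9 CPM (SD, n = 4) in Wt and 199.6 ± 4.71 CPM (SD, n = 4) in Ifnar1-/-, which gave a log2 difference of 1.01 (standard error 0.07). Gm43713 stood at 83.9, 91.5, 55.3 and 62.3 CPM in Wt. In Ifnar1-/- it stood at 259, 251.3, 214 and 224 CPM. The groups again did not overlap, and within each genotype both females lay above both males. The means were 73.3 ± 17.2 CPM (SD, n = 4) in Wt and 237 ± 21.6 CPM (SD, n = 4) in Ifnar1-/-, which gave a log2 difference of 1.704 (standard error 0.19). These values rest on 10773 and 20594 Gon4l UMIs in Wt and Ifnar1-/- and on 8014 and 24123 Gm43713 UMIs. Over all genes tested in this class, edgeR called 0.0557% by genotype at an adjusted p under 0.05, and all Ifnar1-/- mice lay above all Wt mice for 0.713%. Since the genotype contrast chose the pair, nothing is read from these shares.

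The GABAergic neurons, the inhibitory cells, gave the same picture at a slightly higher level. Gon4l stood at 101, 93.4, 120.4 and 110.1 CPM in the 4 Wt mice and at 221, 238, 261 and 243 CPM in the 4 Ifnar1-/- mice. Gm43713 stood at 98.3, 102, 63.1 and 58.6 CPM in Wt and at 297, 304, 271 and 269.8 CPM in Ifnar1-/-. Neither gene overlapped between the genotypes. The log2 fold changes were 1.19 (standard error 0.08) for Gon4l and 1.83 (standard error 0.21) for Gm43713. In this class 0.0274% of genes were called by genotype and 0.856% did not overlap in this direction.

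Glial classes were shallower, with a median of 2078.5 UMIs per oligodendrocyte nucleus and 1472 per microglial nucleus. In oligodendrocytes, the myelinating cells, Gon4l stood at 97.5, 87.3, 98.9 and 93.6 CPM in Wt and at 221, 206, 194 and 178 CPM in Ifnar1-/-. Gm43713 stood at 115, 96.2, 68.2 and 69.8 CPM in Wt and at 286, 254, 239.7 and 206 CPM in Ifnar1-/-. The log2 fold changes were 1.09 (standard error 0.12) and 1.499 (standard error 0.21), again with no overlap. The neuronal gene Slc17a7 reached 9.43% to 35.2% of its glutamatergic CPM in oligodendrocytes, against 87.05% to 114% for Gon4l and 92.1% to 137% for Gm43713. Whether free neuronal RNA made up part of the oligodendrocyte values was not tested. The background in oligodendrocytes was 0.0711% called and 0.702% without overlap in this direction.

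In microglia, the resident macrophages of the brain, Gon4l stood at 114, 115, 121 and 108 CPM in Wt and at 137, 188, 200.6 and 184 CPM in Ifnar1-/-. Gm43713 stood at 99.9, 122, 59.8 and 75.3 CPM in Wt and at 399.9, 229, 215 and 174 CPM in Ifnar1-/-. The groups did not overlap, but the Ifnar1-/- F1 mouse stood apart, with the lowest Gon4l and the highest Gm43713 of its group. That library held only 156 microglial nuclei, with 24 Gon4l and 70 Gm43713 UMIs, against 438 to 765 nuclei in the other Ifnar1-/- libraries. The log2 fold change was 0.66 (standard error 0.15) for Gon4l and 1.45 (standard error 0.29) for Gm43713, and without this mouse the values were 0.73 and 1.19. The background in microglia was 0.105% called and 0.565% without overlap in this direction. Slc17a7, which marks glutamatergic neurons, reached 15.6% to 49.4% of its glutamatergic CPM in the microglia, so UMIs of a neuronal gene were counted there. Gon4l reached 70.7% to 125% and Gm43713 77.7% to 154% of their glutamatergic CPM in the same libraries. Whether free neuronal RNA made up part of the microglial values was not tested.

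Smaller classes were described by value only. In striatal projection neurons (1204 nuclei) Gon4l was 88.7 ± 11.9 CPM (SD, n = 4) in Wt and 166 ± 20.4 CPM (SD, n = 4) in Ifnar1-/-. Gm43713 was 68.0 ± 17.8 and 191 ± 9.17 CPM (SD, n = 4 each) there. In oligodendrocyte precursors (455 nuclei) Gon4l was 76.7 ± 9.33 and 162 ± 37.2 CPM, and Gm43713 72.8 ± 29.5 and 223 ± 63.9 CPM (SD, n = 4 each). Neither gene overlapped between the genotypes in these classes, in which 0.69% and 1.17% of genes of at least 5 CPM did not overlap in this direction. Astrocytes gave a different picture for Gon4l, with 122 ± 48.1 CPM in Wt and 105 ± 25.7 CPM in Ifnar1-/- (SD, n = 4 each), and overlapping groups. Gm43713 in astrocytes was 99.3 ± 47.3 and 214 ± 63.4 CPM (SD, n = 4 each), and Wt F1 at 163 CPM lay above Ifnar1-/- M2 at 128 CPM. The astrocyte values rest on 164 nuclei, with 22 Gon4l and 18 Gm43713 UMIs in Wt and 30 and 60 in Ifnar1-/-.

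**Figure D2:**
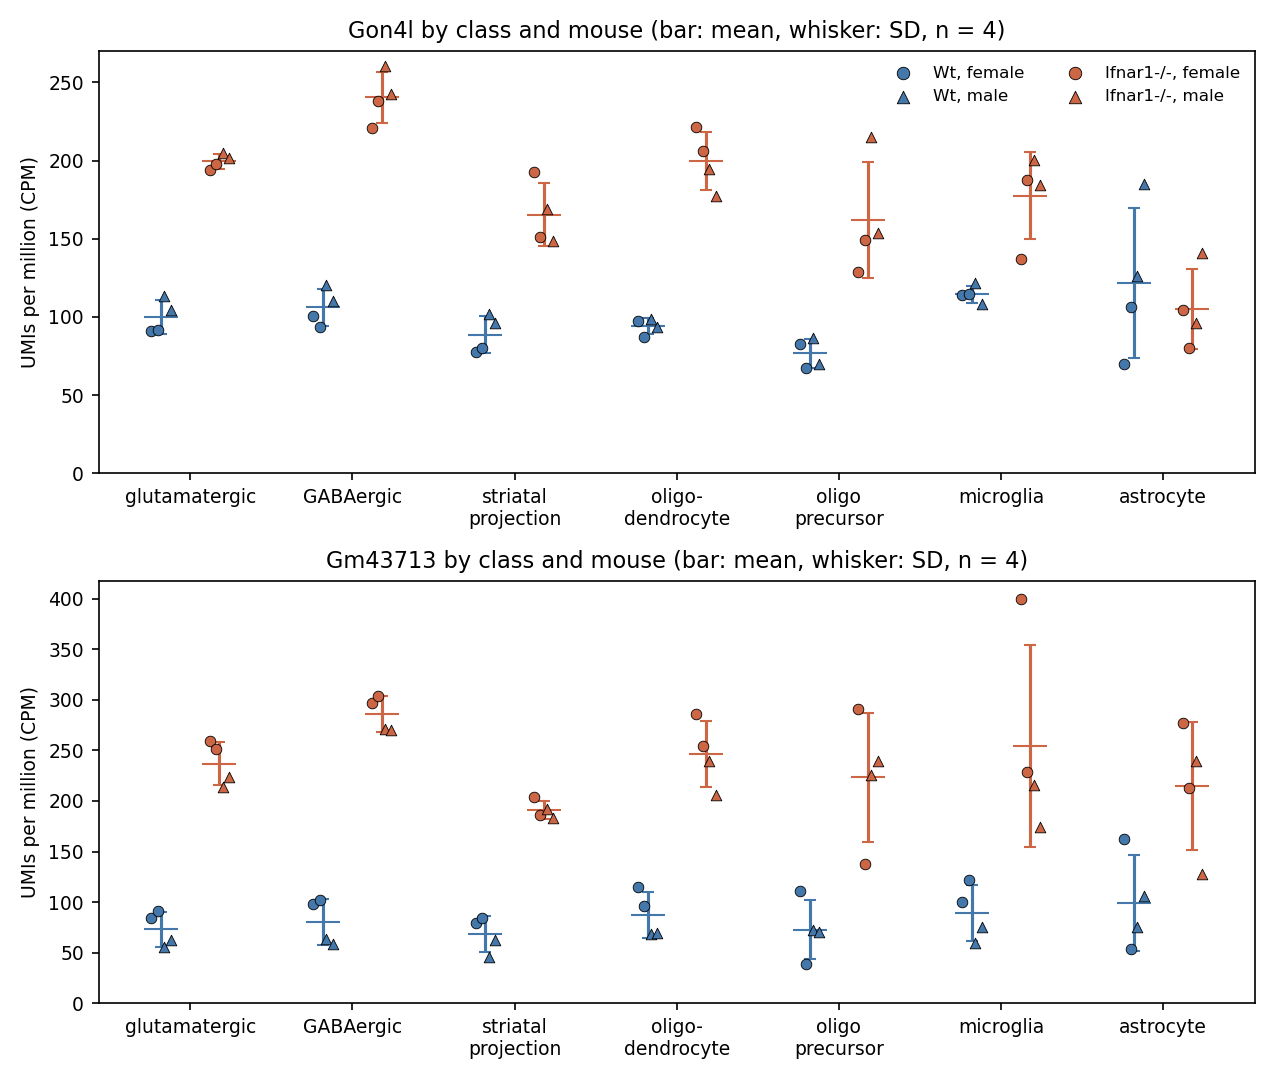
Level of Gon4l (upper) and Gm43713 (lower) in CPM by class, with 1 point per mouse (circles female, triangles male), blue for Wt and orange for Ifnar1-/-, and bars and whiskers for mean and SD (n = 4). In every class except astrocytes the orange points lie above all blue points.

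The difference was not carried by a few clusters. Of the 32 clusters with at least 200 nuclei and at least 10 in each mouse, all 32 had a higher mean in Ifnar1-/- for both genes. All Ifnar1-/- mice lay above all Wt mice in 30 of 32 clusters for Gon4l and in 32 of 32 for Gm43713, against 0.899% of all gene and cluster pairs of at least 5 CPM. Genotype chose the pair, and the clusters are parts of the same libraries. These counts are therefore a description, and nothing is read from the share beside them. The 2 exceptions for Gon4l were clusters that matched no class, with 568 and 369 nuclei. The ratio of mean CPM ran from 1.32 to 2.49 for Gon4l (median 2.02) and from 2.36 to 3.88 for Gm43713 (median 3.26). Within glutamatergic clusters, a layer 2/3-like cluster of 4264 nuclei had ratios of 1.77 and 3.07. A layer 5 extratelencephalic-like cluster of 1659 nuclei had ratios of 2.28 and 3.63, and a layer 6b-like cluster of 1125 nuclei had 2.36 and 3.79. In GABAergic clusters the ratios were 2.46 and 3.88 where Pvalb led the interneuron markers, 2.25 and 3.33 in the larger cluster led by Sst, and 2.07 and 3.35 where Vip led. Clusters share mice, and these ratios were not tested against each other.

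**Figure D3:**
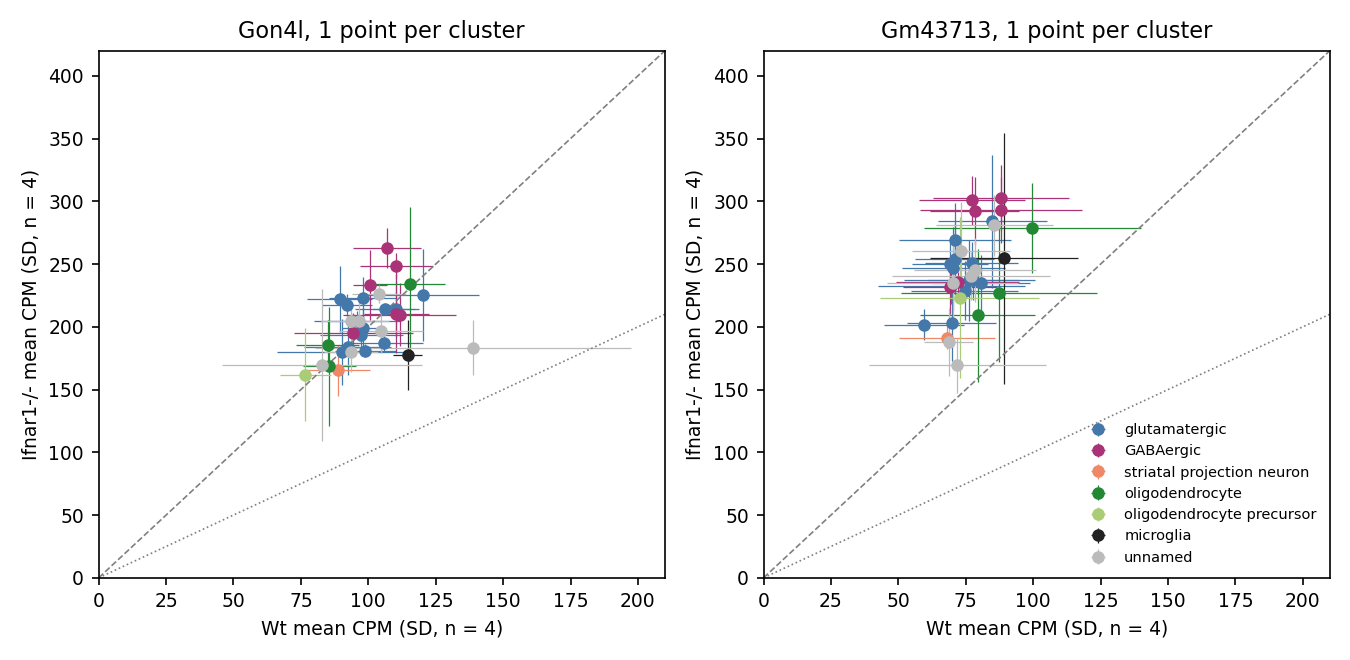
Mean CPM of Gon4l (left) and Gm43713 (right) in Ifnar1-/- against Wt, with 1 point per cluster coloured by class and bars for SD over 4 mice. The dotted line marks equal levels and the dashed line a ratio of 2. Gon4l clusters scatter about the dashed line and Gm43713 clusters lie above it.

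Levels across classes were compared over all 8 mice, without genotype. Levels of 5 classes were compared within mice by an exact two-sided sign-flip permutation test on log2(CPM + 1), with 8 tests of neighbouring classes. For Gon4l the order of mean log2 level was GABAergic (7.33), microglia (7.16), glutamatergic (7.15), oligodendrocyte (7.11) and striatal projection neurons (6.93). For Gm43713 the order was GABAergic (7.23), oligodendrocyte (7.19), microglia (7.19), glutamatergic (7.04) and striatal projection neurons (6.83). None of the neighbours in either order differed after Benjamini-Hochberg adjustment, and classes farther apart were not tested. The order over all mice is not that of each genotype. Gon4l in microglia minus glutamatergic neurons was 0.20 ± 0.15 log2 units in Wt and -0.18 ± 0.21 in Ifnar1-/- (SD, n = 4 each), which averaged to 0.00691. The widest steps were the last ones. Gon4l was lower in striatal neurons than in oligodendrocytes by 0.18 ± 0.17 log2 units (SD of 8 mice, exact permutation p = 0.0313, adjusted p = 0.125), in 6 of 8 mice. Gm43713 was lower in striatal than in glutamatergic neurons by 0.21 ± 0.15 log2 units (SD of 8 mice, exact permutation p = 0.0156, adjusted p = 0.125), in 7 of 8 mice.

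The size of the genotype difference in other classes is set beside that in glutamatergic neurons as a description, since genotype chose the pair. On the log2(CPM + 1) scale the Gon4l difference was larger in GABAergic than in glutamatergic neurons by 0.18, larger in oligodendrocytes by 0.08, and stood at -0.38 relative to glutamatergic neurons in microglia. For Gm43713 GABAergic neurons stood at 0.15, oligodendrocytes at -0.20 and microglia at -0.22.

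Sex was a further term that the choice of the pair had not used. With genotype in the model, Gm43713 was lower in males by a log2 difference of -0.46 in glutamatergic neurons (standard error 0.09, adjusted p = 0.00519, edgeR) and -0.50 in GABAergic neurons (standard error 0.11, adjusted p = 0.00732, edgeR). In glutamatergic neurons it averaged 87.7 CPM in Wt females and 58.8 CPM in Wt males, and 255 and 219 CPM in Ifnar1-/- females and males. Gon4l did not pass, with log2 differences of 0.09 (adjusted p = 0.333, edgeR) and 0.11 (adjusted p = 0.27, edgeR) in the same classes. Such calls were common. Between the sexes edgeR called 30.2% of all genes in glutamatergic neurons and 25.7% in GABAergic neurons, and 13.6% and 11.1% were called lower in males. A call for 1 of 2 genes is therefore no result particular to Gm43713. The share of UMIs from all other genes annotated as antisense moved the same way, at 2.63% to 4.23% in the 4 female libraries and 1.98% to 2.53% in the 4 male libraries. Mitochondrial UMIs were 0.179% to 0.411% in females and 0.435% to 1.12% in males. The labels give no library batch, so sex and any batch that followed it cannot be told apart, and the part of the antisense share in the sex difference was not tested.

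The genotype difference within each sex was in the same direction. In glutamatergic neurons the log2 fold change of Gm43713 was 1.54 in females and 1.92 in males, and that of Gon4l was 1.10 and 0.92. In GABAergic neurons it was 1.59 and 2.17 for Gm43713 and 1.25 and 1.14 for Gon4l. In a fit with an interaction term the genotype difference in males minus that in females was 0.37 and 0.57 for Gm43713 and -0.19 and -0.11 for Gon4l in glutamatergic and GABAergic neurons, on the log2 scale and given with no test.

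Gm43713 UMIs per 100 Gon4l UMIs cancel the depth of a library. Since UMIs are not scaled to gene length, this ratio compares mice and classes and is no ratio of molecules. In glutamatergic neurons it was 92.1, 99.9, 48.7 and 59.6 in Wt F1, F2, M1 and M2. In Ifnar1-/- it was 134, 127, 104 and 111. The ratio was higher in every Ifnar1-/- mouse than in every Wt mouse, so the antisense count differed by more than the sense count. Males lay below females in both genotypes, and the gap was wider in Wt. GABAergic neurons gave 97.7, 109.6, 52.4 and 53.2 in Wt and 135, 128, 104 and 111 in Ifnar1-/-, where Wt F2 lay above Ifnar1-/- M1. In oligodendrocytes the ratio ran from 69.0 to 118 in Wt and from 116 to 129 in Ifnar1-/-, so these groups overlapped too. The Ifnar1-/- F1 microglia reached 292, with an exact (Clopper-Pearson) 95% interval of 181 to 485 that covers counting error only.

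**Figure D4:**
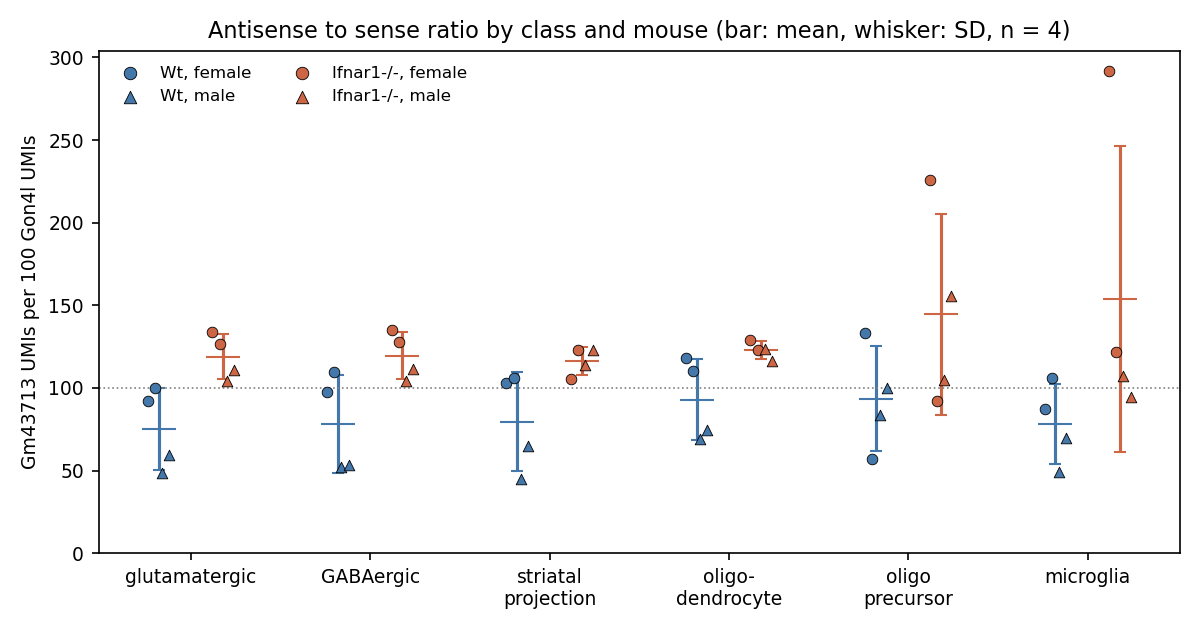
Gm43713 UMIs per 100 Gon4l UMIs by class, with 1 point per mouse (circles female, triangles male; blue Wt, orange Ifnar1-/-), bars and whiskers for mean and SD (n = 4) and a dotted line at equal UMIs. Wt males lie lowest in every plotted class except oligodendrocyte precursors, and the single point at 292 is the Ifnar1-/- F1 microglia.

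Counts in single nuclei were low. In glutamatergic neurons 56.1% to 65.9% of Wt nuclei and 64.7% to 87.8% of Ifnar1-/- nuclei had a Gon4l UMI. For Gm43713 the shares were 33.4% to 63.0% and 74.2% to 91.7%. Nuclei with 3 or more Gon4l UMIs made up a mean of 9.36% in Wt and 31.5% in Ifnar1-/-, and the highest count in any of these nuclei was 14 for Gon4l and 15 for Gm43713. The difference was thus seen as more UMIs in many nuclei and not in a few extreme ones.

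To set libraries of unequal depth side by side, each nucleus was thinned at random to 3000 UMIs, which left out 139 Wt and 208 Ifnar1-/- glutamatergic nuclei below that depth. Gon4l was then detected in 25.7% ± 2.65 of Wt and 43.8% ± 1.59 of Ifnar1-/- glutamatergic nuclei (SD, n = 4). Gm43713 was detected in 20.1% ± 4.09 and 49.8% ± 2.76. Both genes were found in the same nucleus in 5.66% ± 1.21 of Wt and 22.2% ± 1.18 of Ifnar1-/- nuclei (SD, n = 4 each). All 3 shares were higher in every Ifnar1-/- mouse than in every Wt mouse. Nuclei with a UMI also held more of them, at a mean of 1.17 against 1.37 Gon4l UMIs and 1.13 against 1.43 Gm43713 UMIs.

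Detection of one gene was then compared between nuclei with and without the other. In Wt glutamatergic neurons Gm43713 was found in 22.6% ± 6.87 of nuclei with Gon4l and in 19.4% ± 3.59 of nuclei without it (SD, n = 4). In Ifnar1-/- the shares were 50.9% ± 4.24 and 49.0% ± 1.81 (SD, n = 4). Their ratio was 1.52, 1.10, 0.962 and 1.05 in the 4 Wt mice and 1.06, 1.11, 1.02 and 0.972 in the 4 Ifnar1-/- mice. A ratio of 1 is what separate detection gives, and only Wt F1 lay far from it. Thinned to 5000 UMIs the ratio was 0.953 to 1.17 in Wt and 1.02 to 1.06 in Ifnar1-/-. Within the largest glutamatergic cluster at that depth it was 0.719 to 1.19 and 0.933 to 1.07. GABAergic neurons gave 1.04 to 1.47 in Wt and 0.9498 to 1.10 in Ifnar1-/- at 3000 UMIs. In oligodendrocytes, thinned to 1000 UMIs, it was 0.801 to 1.69 in Wt and 0.932 to 1.58 in Ifnar1-/-, from few nuclei with both genes (0.456% to 1.11% in Wt and 2.51% to 5.58% in Ifnar1-/-). For scale, the same ratio of Gm43713 with 5 neighbouring genes at 5000 UMIs ran from 0.868 to 1.17 in Wt and 0.951 to 1.16 in Ifnar1-/- glutamatergic neurons, and from 0.598 to 1.37 and 0.757 to 1.17 in GABAergic neurons.

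**Figure D5:**
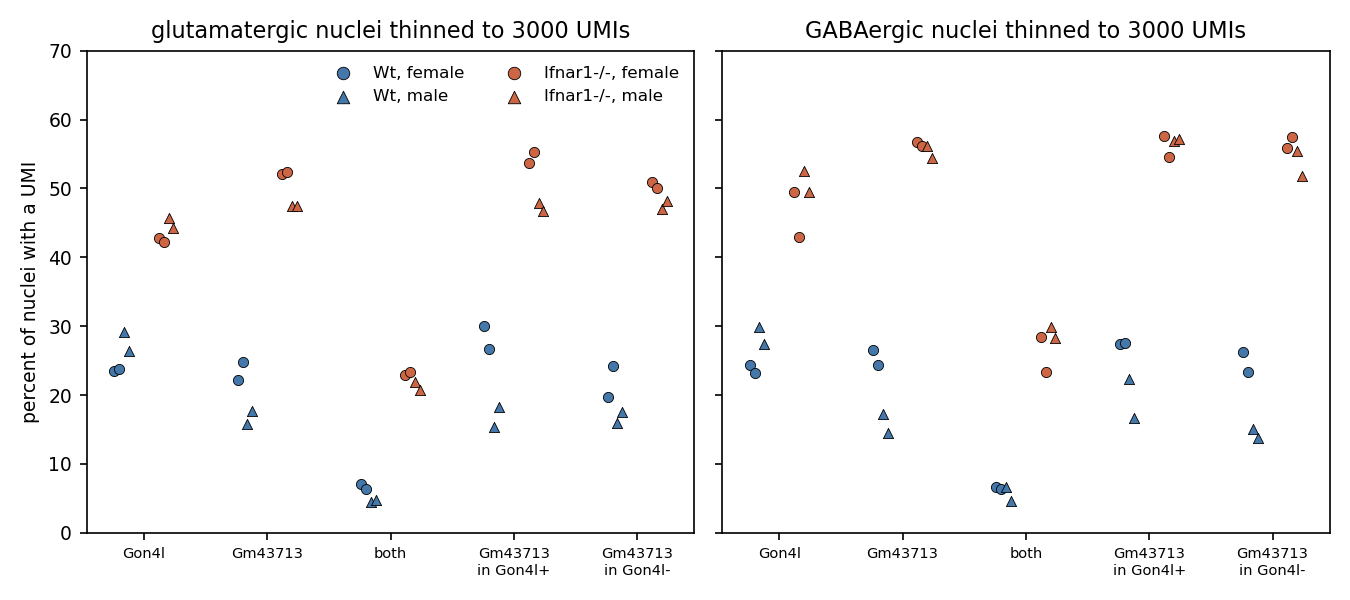
Percent of nuclei with a UMI of Gon4l, Gm43713 or both, and of Gm43713 among nuclei with (Gon4l+) or without (Gon4l-) a Gon4l UMI, after thinning to 3000 UMIs, in glutamatergic (left) and GABAergic (right) nuclei. Points are mice (circles female, triangles male; blue Wt, orange Ifnar1-/-), and the last 2 columns lie close together within each genotype.

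Genes of proteins reported with Gon4l, or sharing its domains or complex, were taken as a list. The list of 20 genes held Yy1, the Sin3 scaffolds Sin3a and Sin3b, the deacetylases Hdac1 and Hdac2, other members of the Sin3 complex, the histone gene regulators Npat and Casp8ap2, and the cytokine-activated factor Stat3. Of the 20 tested in glutamatergic neurons 0 rose and 0 fell in Ifnar1-/- by edgeR, 0 had an unadjusted p under 0.05 and 0 passed in DESeq2. The counts in GABAergic neurons, oligodendrocytes and microglia were 0 of 19 each in both tools, and edgeR gave 0, 1 and 0 of them an unadjusted p under 0.05. Over all genes tested the called share was 0.0557%, 0.0274%, 0.0711% and 0.105% in the 4 classes, so nothing particular to the list is read from its count of 0. No share over all genes is given for the unadjusted threshold or for DESeq2, so those counts are not read either. In glutamatergic neurons the list ranged from -0.19 to 0.20 in log2 fold change, with a median of -0.03 against 0.00113 over all genes tested. Arid4b, a subunit of that complex and the highest of the list, stood at 177 ± 3.29 CPM in Wt and 183 ± 9.99 CPM in Ifnar1-/- (SD, n = 4). Its relative Arid4a stood at 101 ± 2.84 and 96.9 ± 4.13 CPM, and the histone-binding subunit Rbbp4 at 54.0 ± 1.51 and 52.1 ± 2.08 CPM (SD, n = 4 each). For each of these genes the groups overlapped.

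Of the 3 tested genes nearest to Gon4l on each side, 0 of 6 passed in any of the 4 classes by edgeR, against the same called shares of 0.0557%, 0.0274%, 0.0711% and 0.105% over all genes, and 1 of 6 passed in glutamatergic neurons by DESeq2. At an unadjusted p under 0.05 edgeR gave 3, 3, 1 and 0 of them in glutamatergic neurons, GABAergic neurons, oligodendrocytes and microglia. No share over all genes is given for the unadjusted threshold or for DESeq2, so nothing particular to the neighbours is read from these counts. The gene that passed in DESeq2 was Rit1, a small GTPase, with a log2 fold change of -0.41 in glutamatergic and -0.40 in GABAergic neurons (edgeR adjusted p = 0.765 and 1). For Rit1 all Ifnar1-/- mice lay below all Wt mice in both classes. Syt11, a synaptotagmin whose annotated start lies beside the pseudogene, had 0.32 and 0.33 (edgeR adjusted p = 0.842 and 1), and all Ifnar1-/- mice lay above all Wt mice in both classes, as 0.713% and 0.856% of genes did. Syt11 was also higher without overlap in oligodendrocytes, at 0.304, as 0.702% of genes were. Msto1, which overlaps the 3' end of Gon4l on the other strand, had -0.40 and -0.21 (edgeR adjusted p = 0.9999 and 1). For Msto1 all Ifnar1-/- mice lay below all Wt mice in glutamatergic neurons, and the groups overlapped in GABAergic neurons. The share of all genes that lay lower without overlap is not given. Dap3 had 0.20 with overlapping groups in glutamatergic and 0.39 without overlap in GABAergic neurons (edgeR adjusted p = 0.9999 and 1). The other 2 were 2810403A07Rik (Khdc4 in the annotation) at 0.03 and -0.01 and Ash1l at 0.03 and 0.02, each with overlapping groups.

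Genes with a pattern like that of the pair were named by Pearson's r of log2(CPM + 1) over the 8 glutamatergic samples, among 11445 genes of at least 5 CPM. The samples form 2 groups by genotype, so r mostly follows genotype, and it is given with no p. Gon4l was most like Gm36388 (r = 0.965), Pcdh15 (0.961), Vegfc (0.952), Scnm1 (0.951) and Npy1r (0.9496), and Gm43713 held place 13 for it (r = 0.903). Gm43713 was most like Brcc3 (r = 0.964), Col12a1 (0.961), Gm26848 (0.955), 4930578G10Rik (0.931) and Tshz3 (0.923). Over 34 clusters of Wt nuclei, where genotype does not enter, Gon4l was most like Ccdc86 (r = 0.705), Snx14 (0.6503), Zfp780b (0.649), Vps39 (0.647) and Uqcrc1 (0.641). Gm43713 held place 465 of 12238 genes there (r = 0.363). Clusters share libraries and differ in depth, which this r does not remove.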

How the data were processed

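Nuclei of mouse cortex were profiled with the 10x Single Cell 3' v3 chemistry in 8 libraries. Per the labels and the study's methods, the authors aligned reads with Cell Ranger to an mm10 reference that also counted unspliced RNA and analysed them in Seurat 3.1.5. The deposited values are raw UMI counts per gene and barcode, not normalized. Barcodes with 200 to 6000 genes, over 1000 UMIs and under 10% mitochondrial UMIs were kept (54341 of 56780), and 2262 doublets called by Scrublet were removed.

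Nuclei were clustered (scanpy 1.11.5, Leiden resolution 1, 40 components of 3000 variable genes, with both members left out) into 47 clusters. Clusters were named from fixed markers, but the score needed for a name (0.6) and the resolution were set after marker scores had been seen. Clusters that matched no class held 18.9% of Wt and 18.8% of Ifnar1-/- nuclei. UMIs were summed per class and mouse and tested with edgeR 4.0.16 (quasi-likelihood, TMM, low counts filtered, Benjamini-Hochberg), with DESeq2 1.42.0 as an alternative. CPM in the text are UMIs divided by the summed UMIs of the class in that mouse and scaled to a common total, without TMM. Fits were tested on simulated data. Genotype by class and genotype by sex are given without their tests, since genotype chose the pair. Intervals cover counting error only. Labels do not say that mice of a group came from separate litters, so p-values measure the spread between these samples.

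Genotypes share the labels F1, F2, M1 and M2. Same-labelled mice deviated together in glutamatergic neurons (r = 0.567, 0.674, 0.692 and 0.49), so a replicate block was tried. The labels mark sex and an index, and 3 of 4 Wt and 2 of 4 Ifnar1-/- mice matched another label better, always one of the same sex. Sex was left in these deviations, so r cannot tell a shared index from shared sex.

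Members and gene lists were chosen with earlier results of these data known. Named genes were the members, the list members past the threshold or else the 3 of highest level, the 3 nearest tested genes on each side, and the 5 most alike. Transcripts and coordinates came from GENCODE vM21 (GRCm38) and promoters from RefSeq (GRCm38.p6).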

Additional observations from a re-analysis of the deposited data

Results flagged for a closer look

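In 64 groups of 4 mice, 4 values lay far from the other 3 by Dixon's criterion, and chance alone gives about 1 in 20 groups. The Ifnar1-/- F1 microglia held 291.7 Gm43713 UMIs per 100 Gon4l UMIs, from 70 and 24 UMIs. In astrocytes the ratio was 233.3 in Wt F1 and 90.91 in Ifnar1-/- M2, where each library held only 12 and 20 nuclei. The share of GABAergic nuclei with both genes at 3000 UMIs was 4.577% in Wt M2, below the other Wt mice.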

How the results depend on the processing

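The log2 fold changes by genotype kept their direction in glutamatergic and GABAergic neurons, oligodendrocytes and microglia without TMM, in DESeq2, without the filter, with sex as a covariate, with doublets kept and with stricter classes, and over all nuclei with all deposited barcodes. The smaller classes had no alternative run. With the replicate block the glutamatergic values were 1.02 (Gon4l) and 1.74 (Gm43713), and the block changed no call in the gene lists. In fits within 1 sex, chosen after seeing the data, the values that moved beyond the spread between mice were 2.17 in males for Gm43713 in GABAergic neurons, and 1.21 in females and 0.966 in males for Gon4l in oligodendrocytes. DESeq2 called 1 neighbour gene in glutamatergic neurons, where edgeR called 0, and the cause was not tested. With 1 mouse left out, the microglia against glutamatergic step of Gon4l ran from -0.0383 to 0.0789 and the oligodendrocyte against microglia step of Gm43713 from -0.0339 to 0.0703, and the sign turned without Wt F1, F2 or M1 for Gon4l and without Wt F1 or M1 or Ifnar1-/- F2, M1 or M2 for Gm43713, so the order of these classes is not set. The sex calls of Gm43713 kept their side of the threshold without TMM, in DESeq2 and with each mouse left out. Shallow glia and 164 astrocyte nuclei limit the precision of their values.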
